A study of Mus musculus with 12 samples.

Results

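The cold response of control brown fat was described from 6 of the 12 libraries of the study, 3 from cold-exposed and 3 from room temperature animals, chosen by their labels alone. All were C57BL/6 mice of wild type genotype (WT), littermates of animals with a Cdk7 deletion in brown adipose tissue, and were 12 weeks old. Interscapular brown adipose tissue was taken at zeitgeber time 9, that is 9 h after lights on, either from mice kept at room temperature or from mice held in the cold for 6 h with food. Each library was made from a pool of 2 mice of the same group, with 250 ng of RNA from each mouse, so that a pool stands for 2 animals and the spread between the 2 is not seen. The other 6 libraries came from the mice with the deletion (KO), under the same 2 conditions, and serve here only for a closing comparison. The sources used here give neither the animals' sex nor the cold temperature nor the driver of the deletion.

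Brown fat makes heat. In the cold, noradrenaline from sympathetic nerves acts on beta-adrenergic receptors of the brown adipocyte, cAMP rises, protein kinase A is activated, stored lipid is broken down, and the uncoupling protein of the inner mitochondrial membrane, Ucp1, lets protons return without making ATP. The same signal raises transcription of Ucp1 itself, of Dio2, which makes active thyroid hormone inside the cell, and of Ppargc1a, a coactivator of genes for mitochondria. Fatty acids for this work come from droplets, from lipoproteins of the blood and from synthesis out of glucose, all of which are known to be under control of temperature and feeding.

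Levels are given in CPM, that is reads of a gene relative to all gene reads of its library, on the usual counts-per-million scale, after correction for library composition, in the order of replicates 1, 2 and 3. A gene is called here when its adjusted p in edgeR's quasi-likelihood test is below 0.05, and "rose" or "fell" is used of called genes alone. The ± beside a log2 fold change (cold over room temperature) is its standard error, and n is 3 pools per condition throughout. CPM of different genes are not compared, since they depend on transcript length. The total of gene reads per library ran from 27609717 to 36792555, and 13149 to 14377 genes had at least 10 counts. Correlations of log2 CPM across genes were 0.982 to 0.991 between pools of the same condition and 0.944 to 0.963 between conditions. Genes are not independent replicates. On the first principal component, with 71.7% of the variance, room temperature pools lay at 19 to 37.6 and cold pools at −34.4 to −19.4.

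After the correction for library composition about as many genes rose as fell, a balance that depends on the scaling. Of 13881 genes tested, 3398 rose (24.5%) and 3410 fell (24.6%), so that 49% were called in all. This share is the background against which every count of genes below has to be read. Large falls were more frequent than large rises: 556 genes rose more than 2-fold and 1048 fell more than 2-fold, while 114 rose and 153 fell more than 4-fold. The median log2 fold change of all genes was −0.02. With library totals alone in place of the composition correction the median shifted to −0.21, 1627 genes rose and 4293 fell, and the share of rises among the calls went from 49.9% to 27.5%. Small changes of large gene groups therefore depend on the scaling, and the counts by totals alone are given beside those of most groups.

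**Figure D1:**
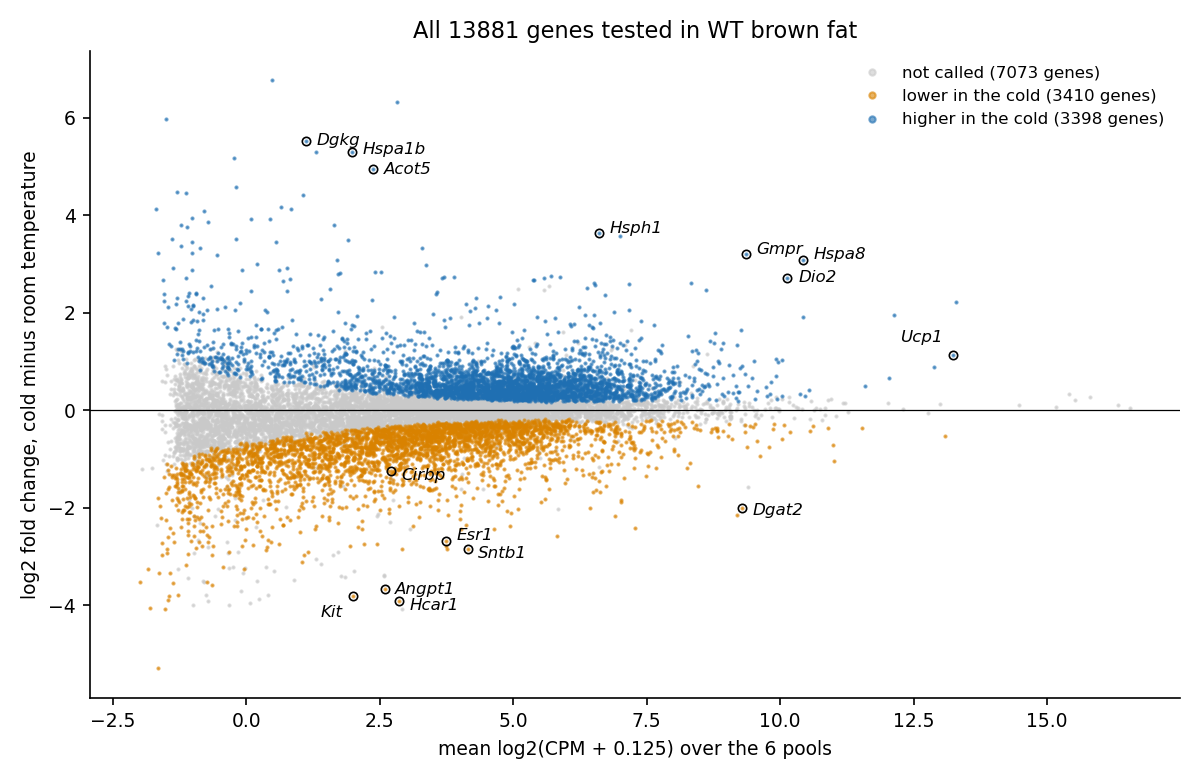
Log2 fold change, cold over room temperature, of the 13881 genes tested in control brown fat against mean log2 CPM, with genes that rose and genes that fell coloured. The 3398 rises and 3410 falls lie on both sides of 0, and the named largest changes stand far outside the bulk.

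Rises and falls were not spread evenly over abundance. Among genes with a mean log2 CPM over 6, 780 rose and 250 fell, whereas among those under 0, 169 rose and 393 fell. By totals alone the abundant class had 408 rises and 359 falls. Genes of protein-coding type had 3189 rises and 3014 falls. Long intergenic RNAs had 37 rises and 109 falls, antisense RNAs 30 and 117, and processed pseudogenes 75 and 8.

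Pools of a condition were not equally far from the other condition. Among the genes that rose more than 2-fold, room temperature replicate 1 was the room temperature pool closest to the cold pools in 323 of 556, or 58.1%. The same pool was closest in 604 of 1048, or 57.6%, of the genes that fell more than 2-fold. On the cold side replicate 3 was the closest to room temperature in 56.5% of the rises and 54.6% of the falls. Room temperature replicate 1 also had the highest share of reads from mitochondrially encoded genes, 42.5%, against 31.3% and 34.5% in the other two, while cold pools had 34.6 to 40.6%. The part of this in the results was not tested.

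Markers of brown adipocytes were abundant in all 6 pools. The summed level of 11 brown adipocyte markers was 11977, 9160 and 9306 CPM at room temperature, against 22295, 20777 and 20069 CPM in the cold. Without Ucp1 and Dio2 the other 9 summed to 3598, 2899 and 2972 CPM against 3429, 3747 and 3738 CPM, with overlap, so the higher sum in the cold came mostly from these 2 genes. Of the 11, 4 rose and 3 fell. Of 12 markers of adipocytes in general, none rose and 5 fell (3 without room temperature replicate 3, cold replicate 1 or cold replicate 2), with summed levels of 12820, 13038 and 13177 CPM against 12259, 11721 and 12057 CPM. At an unadjusted p under 0.05, 1 of these was higher and 6 were lower. Skeletal muscle RNA varied between pools: 14 muscle markers summed to 303, 800 and 13.9 CPM at room temperature and to 95.1, 2.18 and 4.56 CPM in the cold, with none of the 14 called by edgeR with all 6 libraries and no block. A further muscle marker, Myl1, fell from 127, 156 and 136 CPM to 53.3, 58.6 and 60.8 CPM (adjusted p = 3e-06) and did not follow the order of the others. Of these 15 markers 1 had an unadjusted p under 0.05, and DESeq2 called 2. In edgeR the heavy chain Myh7 was called too with the replicate block (−3.99, adjusted p = 0.009) and without room temperature replicate 3 (−4.51, adjusted p = 0.024). In whole tissue, fewer cells of a type and less RNA per cell cannot be told apart.

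The best known cold genes of brown fat rose. Ucp1 (ENSMUSG00000031710, chromosome 8, 83290352 to 83298452) stood at 7572, 5919 and 6081 CPM at room temperature, against 15622, 14170 and 13224 CPM in the cold. Every cold pool was above every room temperature pool, and the rise was 2.2-fold (log2 1.14 ± 0.12, adjusted p = 3e-05). Dio2, the deiodinase that turns thyroxine into the active hormone, went from 807, 342 and 253 CPM to 3244, 2860 and 3108 CPM. The groups did not overlap, the rise was 6.57-fold (log2 2.72 ± 0.53, adjusted p = 0.015), and room temperature replicate 1 was the high one of its group. Ppargc1a had 241, 199 and 89.6 CPM at room temperature, against 1162, 1149 and 631 CPM in the cold, a 5.56-fold rise (log2 2.47 ± 0.51, adjusted p = 0.017). Both groups of Ppargc1a had 1 low pool, replicate 3, without overlap between the groups.

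The wide spread of Dio2 and Ppargc1a at room temperature shows in their calls. Without room temperature replicate 2 the log2 fold change of Dio2 was 2.53 at an adjusted p of 0.056, and that of Ppargc1a 2.56 at 0.062. Ppargc1a also missed the threshold without cold replicate 1 (2.33, adjusted p = 0.056) or cold replicate 2 (2.35, adjusted p = 0.059). The size of the rise moved little in these fits, in which 1 condition has 2 pools.

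The promoter of Dio2 is shown because cAMP raises transcription of this gene and the promoter holds a full cAMP response element, TGACGTCA, on which CREB proteins bind. The stretch is the 250 bases before the RefSeq start, chr12:90739039-90739288, minus strand, build GRCm38.p6, with the element in capitals, 95 bases before the start. Maff is shown with it. This small Maf transcription factor rose too, and its element lies 29 bases before the start (chr15:79347270-79347519, plus strand).
Dio2: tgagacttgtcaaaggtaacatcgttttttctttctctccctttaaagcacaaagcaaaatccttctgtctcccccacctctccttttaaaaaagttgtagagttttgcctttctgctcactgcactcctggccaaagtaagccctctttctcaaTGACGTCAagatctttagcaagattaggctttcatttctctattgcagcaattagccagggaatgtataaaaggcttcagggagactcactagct
Maff: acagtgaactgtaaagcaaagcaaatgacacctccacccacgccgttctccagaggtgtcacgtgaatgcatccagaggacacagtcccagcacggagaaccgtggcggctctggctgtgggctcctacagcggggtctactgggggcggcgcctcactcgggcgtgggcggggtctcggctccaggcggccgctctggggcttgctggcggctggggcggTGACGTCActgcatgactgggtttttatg
Sequences are from RefSeq. A full element on either strand was found in 2.9% of the 13223 promoter windows of 300 bases of tested genes, in 3.21% of windows of genes that rose more than 2-fold and in 1.2% of windows of genes that fell more than 2-fold. The shorter TGACG, which the full element contains, was found in 29.6%, 29.3% and 21.7%. These matches describe the letters only.

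Receptors upstream of these genes moved less. Adrb3, the main beta-adrenergic receptor of rodent fat cells, had 52.8, 134 and 79.2 CPM at room temperature, against 159, 140 and 122 CPM in the cold, and was not called (log2 0.66 ± 0.38, adjusted p = 0.22). The overlap came from room temperature replicate 2 alone, and without it Adrb3 was called at 1.08 with an adjusted p of 0.0047. Leaving out the pool that made the overlap favours a call, so that fit adds no support for a rise. Limma voom called Adrb3 as well (0.62, adjusted p = 0.043), and no other alternative fit did. The log2 fold change ran from 0.40 to 1.08 over the alternatives. Adrb1 had a log2 fold change of 0.16 ± 0.11 (adjusted p = 0.28), or −0.03 by totals alone. Of the 22 tested members of the list for beta-adrenergic receptors and cAMP machinery, 8 rose and 4 fell, or 3 and 5 by totals alone, and 2 fell without cold replicate 1 or cold replicate 2. Of protein kinase A, 2 regulatory subunits went opposite ways. The regulatory subunit Prkar1a rose 1.89-fold, from 212, 198 and 178 CPM to 375, 363 and 374 CPM (adjusted p = 1.2e-05). Another regulatory subunit, Prkar2b, fell 1.69-fold, from 1131, 1226 and 1111 CPM to 639, 651 and 759 CPM (adjusted p = 6.6e-05). Groups did not overlap for either.

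Early transcription factors gave a mixed picture. In the list of immediate-early and cAMP-responsive factors, 22 were tested, 9 rose and 3 fell. Without room temperature replicate 1, 16 rose and 2 fell. Only 7 rose without room temperature replicate 2, cold replicate 1 or cold replicate 2, and by totals alone 9 rose and 4 fell. Maff rose 3.76-fold, from 4.1, 2.87 and 3.46 CPM to 13.9, 14.9 and 10.3 CPM (adjusted p = 1.2e-05). Fosl2, a subunit of AP-1, rose 2.22-fold from 33.1, 26.7 and 26.4 CPM to 72.8, 72.7 and 45.9 CPM (adjusted p = 0.0032). Nr4a1, an orphan receptor that is induced fast by cAMP, had 195, 65.5 and 54.3 CPM against 143, 200 and 112 CPM, with overlap and no call (0.53 ± 0.63, adjusted p = 0.54). Room temperature replicate 1 was the high one here as well, and without it Nr4a1 was called at 1.34 (adjusted p = 0.035). Again the pool left out was the one that favours a call by its absence. Limma voom called Nr4a1 too (1.12, adjusted p = 0.016), no other alternative fit did, and the range was 0.21 to 1.34.

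Beyond Ucp1, Dio2 and Ppargc1a, the thermogenic list split. Of its 19 members 8 rose, 7 of them more than 2-fold, and 4 fell, none more than 2-fold. The median log2 fold change was 0.14, or −0.05 by totals alone with 7 rises and 5 falls. Elovl3, an elongase of very long fatty acids and a classical cold gene, rose 3.58-fold, from 116, 64.6 and 88.9 CPM to 308, 305 and 351 CPM (adjusted p = 0.00041). Esrrb, an estrogen-related receptor, rose 6.99-fold from a low level, 0.854, 1.17 and 1.61 CPM, to 7.44, 9.84 and 8.63 CPM (adjusted p = 3.5e-06). Its relative Esrrg fell 1.66-fold, from 41.8, 45.2 and 42.5 CPM to 26.3, 26 and 25.9 CPM (adjusted p = 2e-05). Ebf2, a factor that selects brown adipocyte genes, fell 1.47-fold, from 75.9, 65.9 and 76.6 CPM to 51.9, 49.9 and 47.2 CPM (adjusted p = 0.00027). Cidea, a droplet protein and marker of brown fat, had 1848, 1426 and 1585 CPM against 1331, 1441 and 1519 CPM and was not called (−0.18 ± 0.11, adjusted p = 0.18; by totals alone −0.36, adjusted p = 0.022). Elovl3 overlaps Pitx3 on the other strand.

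**Figure D2:**
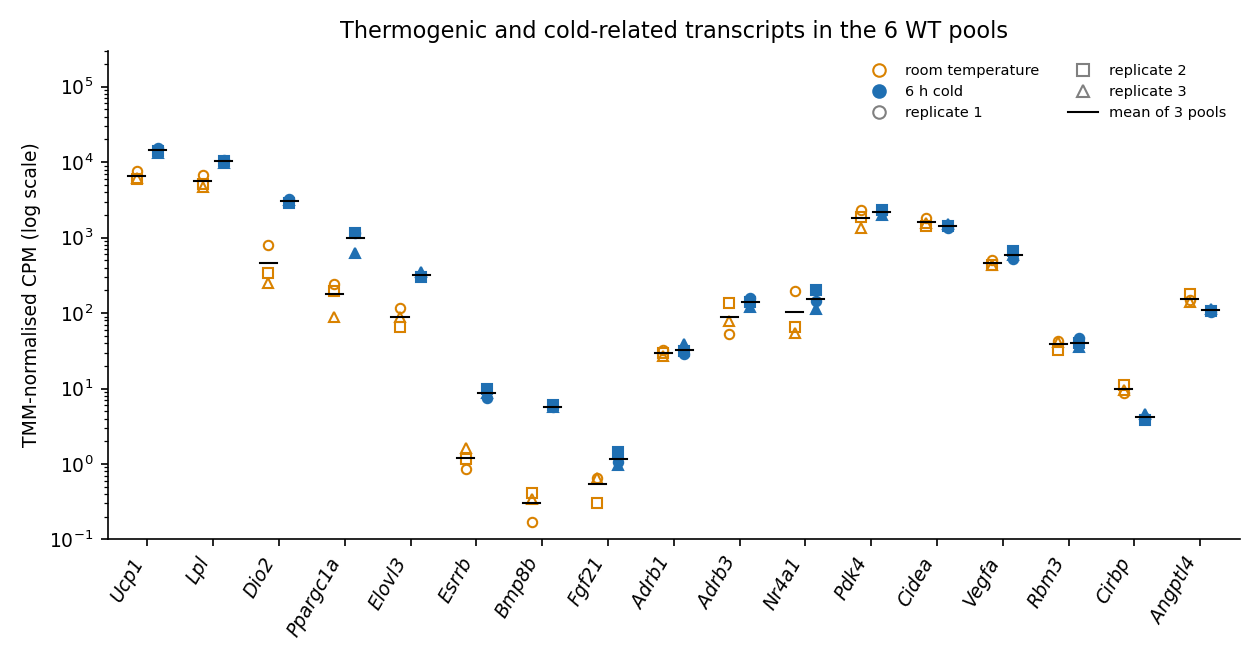
TMM-normalised CPM on a log axis of thermogenic and cold-related genes in the 6 control pools, with 1 point per pool, its replicate as the marker, and a line at the mean of 3 pools. The points of Ucp1, Dio2 and Ppargc1a do not overlap between conditions, and those of Adrb3 do.

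Thyroid hormone action, in which Dio2 stands, had 3 rises and 6 falls among 10 tested genes. Thrb, the beta receptor, fell 1.58-fold from 56.9, 40.9 and 41.2 CPM to 27.7, 28.9 and 31.2 CPM (adjusted p = 0.0017). Hr, a corepressor of thyroid receptors, fell 3.64-fold, from 7.14, 11.2 and 11 CPM to 2.54, 2.7 and 2.83 CPM (adjusted p = 1.7e-05). The groups of Thrb and of Hr did not overlap.

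The largest relative rises belonged to a lipid kinase and to heat shock proteins. Dgkg (ENSMUSG00000022861, chromosome 16, 22468461 to 22657221), a diacylglycerol kinase, went from 0.342, 0.254 and 0.195 CPM to 11.7, 13.5 and 11 CPM, a 46.4-fold rise (log2 5.53 ± 0.20, adjusted p = 5.2e-08). It was all but silent at room temperature in each pool. Acot5, a peroxisomal acyl-CoA thioesterase, rose 30.6-fold, from 2.77, 0.33 and 0.342 CPM to 30.8, 34.2 and 30.3 CPM (log2 4.94 ± 0.78, adjusted p = 0.0081). Room temperature replicate 1 was again the high one. Hpx, the heme carrier hemopexin, rose 21.5-fold, from 0.41, 0.432 and 0.342 CPM to 9.81, 9.97 and 5.8 CPM (adjusted p = 8.8e-07). Gmpr, guanosine monophosphate reductase, rose 9.18-fold from 384, 168 and 135 CPM to 2468, 2205 and 1626 CPM (adjusted p = 0.0087). Cars2, the mitochondrial cysteinyl-tRNA synthetase, rose 11.8-fold, from 51.2, 32.3 and 29.6 CPM to 527, 450 and 360 CPM (adjusted p = 0.00016). Gmpr overlaps Atxn1 and Cars2 overlaps Naxd on the other strand, so these reads are less certain. The 12 largest rises further included Dnah10, Sgk2 and Tectb, at 7.97-fold to 11.2-fold. Sgk2 had an adjusted p of 0.012, and of 0.05 with skeletal muscle as a covariate.

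Chaperones rose nearly as one group. Of 24 cytosolic and mitochondrial chaperones and co-chaperones, 21 rose, 17 of them more than 2-fold, and none fell, against 24.5% rises among all genes. The median log2 fold change was 1.79. By totals alone 20 rose with a median of 1.59, and 21 rose whichever pool was left out. DESeq2 and limma voom called the same number, 21, and none fell at an unadjusted p under 0.05. Hsph1, an exchange factor of the Hsp70 family, went from 24.9, 31.7 and 26.7 CPM to 385, 353 and 298 CPM, 12.4-fold (log2 3.63 ± 0.13, adjusted p = 5.2e-08). Hspa8, the constitutive Hsp70, went from 455, 458 and 507 CPM to 3975, 4434 and 3675 CPM, 8.51-fold (log2 3.09 ± 0.10, adjusted p = 5.2e-08). In both, the lowest cold pool lay many times above the highest room temperature pool. The stress-induced Hsp70 genes were close to absent at room temperature. Hspa1b had 0.307, 0.864 and 0.586 CPM and in the cold 31.8, 24.9 and 15.2 CPM, a 39.3-fold rise (adjusted p = 0.00027). Hspa1a had 0.205, 0.457 and 0.366 CPM and then 19.9, 12.9 and 9.16 CPM, 39.2-fold (adjusted p = 5.4e-05). These 2 genes are near-identical copies, and reads that fit both were counted in neither, so their levels are too low and their shares uncertain.

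The other members followed by family. Hsp90ab1, the constitutive cytosolic Hsp90, rose 3.79-fold, from 752, 690 and 693 CPM to 2850, 2834 and 2412 CPM (adjusted p = 3.3e-07). Hsp90aa1 and Hspb1 are outside the rule for named genes and were chosen after their values were seen. Hsp90aa1, the inducible Hsp90, rose 6.13-fold to 880, 932 and 608 CPM (adjusted p = 6.4e-06). Hspb1, a small heat shock protein, rose 3.73-fold, from 27.1, 26.4 and 32 CPM to 113, 114 and 90.9 CPM (adjusted p = 8.2e-07). Hspb8, of the same family, rose 3.9-fold, from 40.5, 37.7 and 44.6 CPM to 169, 153 and 158 CPM (adjusted p = 1.7e-07). The genes without a call were Hsf1, the heat shock transcription factor (log2 0.09 ± 0.09), the mitochondrial Trap1 (0.07 ± 0.07) and the lens protein Cryab (0.03 ± 0.11), which are named because only 3 of the list were not called.

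**Figure D3:**
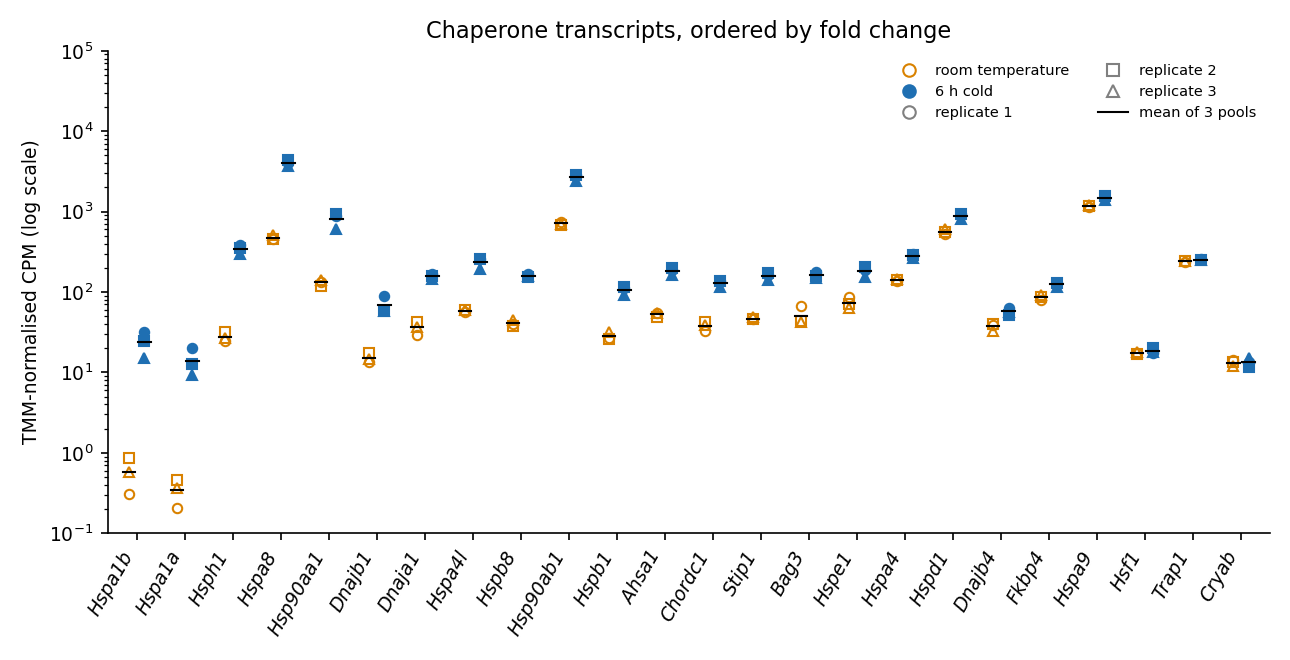
TMM-normalised CPM on a log axis of chaperone genes, ordered by fold change, with 1 point per pool and a line at the mean of 3 pools. Room temperature and cold points lie far apart for Hspa1b, Hspa1a, Hsph1 and Hspa8 and mix for Hsf1 and Cryab.

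Promoters of 3 heat shock genes are shown because members of a family that move together can share a motif, here GAANNTTC, the core that heat shock factors bind, read on both strands. The genes were chosen after their values were seen. Each stretch is the 250 bases before the RefSeq start, build GRCm38.p6, with matches in capitals. Hspa1b (chr17:34959239-34959488, minus strand) and Hspa1a (chr17:34972157-34972406, minus strand) have it 104 bases before the start, and Hspb1 (chr5:135887669-135887918, plus strand) 117 and 97 bases before it.
Hspa1b: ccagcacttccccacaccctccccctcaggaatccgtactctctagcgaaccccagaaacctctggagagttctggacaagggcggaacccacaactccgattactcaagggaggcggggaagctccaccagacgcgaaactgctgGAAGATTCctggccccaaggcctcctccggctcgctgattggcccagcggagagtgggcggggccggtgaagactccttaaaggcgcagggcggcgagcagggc
Hspa1a: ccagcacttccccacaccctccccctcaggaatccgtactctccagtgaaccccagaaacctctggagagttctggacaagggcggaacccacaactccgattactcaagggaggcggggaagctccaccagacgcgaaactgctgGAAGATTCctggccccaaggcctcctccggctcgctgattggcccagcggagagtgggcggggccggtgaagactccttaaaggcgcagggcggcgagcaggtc
Hspb1: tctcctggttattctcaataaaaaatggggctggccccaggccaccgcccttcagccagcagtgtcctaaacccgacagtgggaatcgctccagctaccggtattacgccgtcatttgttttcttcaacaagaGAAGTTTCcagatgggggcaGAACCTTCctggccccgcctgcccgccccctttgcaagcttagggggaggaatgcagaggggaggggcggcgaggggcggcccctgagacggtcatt
Of the 24 promoter windows that matched 18 of the listed chaperones, 12 held the motif, or 50%, in 11 genes. It was found in 5.76% of all windows, in 8.33% of windows of genes that rose more than 2-fold and in 6.11% of windows of genes that fell more than 2-fold. Of the list's genes with a window, Dnajb1, Dnajb4, Hspa4, Hspa4l, Ahsa1 and Stip1 rose without a match in it. No match says only that these letters are not in the window. The heat shock core was not the only motif with a high share. TGACG, the short form given with Dio2, was in 12 of the same 24 windows too, or 50%, against 29.6% of all windows. The list was taken from general knowledge of chaperones, with earlier results of these data known, and neither share was tested.

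Other genes for making and handling proteins rose by less. Of 25 genes of ribosome biogenesis 19 rose and 2 fell, with a median of 0.61 (14 and 2 by totals alone). Nop2, a nucleolar methyltransferase, rose 2.57-fold from 28.1, 23.7 and 29.2 CPM to 73.7, 71.3 and 63.1 CPM (adjusted p = 2.4e-06). Npm1, nucleophosmin, rose 2.04-fold from 54.2, 52.1 and 50.7 CPM to 117, 111 and 92.3 CPM (adjusted p = 1e-05). Myc, the transcription factor at the head of that list, was 1 of the 2 that fell, from 4.88, 3.91 and 3.88 CPM to 1.13, 2.22 and 2.63 CPM (adjusted p = 0.006), and was chosen after its values were seen. Cytosolic ribosomal proteins were called in 18 of 35 cases, all rises, but 2 by totals alone, and 9 without cold replicate 1. Their median was 0.28, or 0.09 by totals alone.

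The proteasome list had 23 rises and 2 falls among 36 members, none beyond 2-fold, with a median of 0.42 (13 and 2 by totals alone). Psmc4, an ATPase of the cap, rose 1.76-fold from 69.4, 64.4 and 67 CPM to 123, 119 and 112 CPM (adjusted p = 1.1e-05). Psma1, of the core, rose 1.92-fold from 96.9, 93.2 and 82.7 CPM to 190, 167 and 166 CPM (adjusted p = 1.5e-05). The falls were Psme1 (log2 −0.38 ± 0.09) and Psme2 (−0.45 ± 0.10), the 2 subunits of the interferon-inducible activator, named because they were the only falls in the list. Of the list for the unfolded protein response of the endoplasmic reticulum, 10 of 23 rose and 6 fell. Manf, a secreted stress factor, rose 2.82-fold, from 21.4, 19.8 and 22.5 CPM to 61.1, 57.3 and 61.2 CPM (adjusted p = 3.8e-07), and Edem1 fell 1.69-fold. Manf overlaps Rbm15b on the same strand. Of the integrated stress response 11 of 23 rose and 4 fell, with 7 rises without room temperature replicate 2 and 2 falls without cold replicate 1 or cold replicate 2. Atf5, one of its factors, rose 2.63-fold from 80.8, 72.2 and 84.5 CPM to 228, 191 and 205 CPM (adjusted p = 1.6e-06).

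The classical cold-shock RNA-binding proteins did not rise. Cirbp, which is named for induction by mild cooling, fell 2.36-fold, from 8.85, 11.2 and 9.49 CPM to 4.01, 3.87 and 4.63 CPM (log2 −1.24 ± 0.14, adjusted p = 3.5e-05). Rbm3 had 43.3, 32.6 and 41 CPM against 46.2, 40.2 and 35.6 CPM, and its groups overlapped (0.06 ± 0.12, adjusted p = 0.7; −0.12 by totals alone). In the list of 20 such factors and splicing proteins, 2 rose and 2 fell, with 4 rises without room temperature replicate 1, 1 without any 1 of room temperature replicates 2 and 3 and cold replicates 1 and 2, and none by totals alone.

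Genes that make fatty acids from glucose fell. Of 16 genes of lipogenesis 10 fell, 5 of them more than 2-fold, and 1 rose, against 24.6% falls among all genes. The median was −0.73, or −0.93 by totals alone with 11 falls. The number of falls was 7 to 12 with any 1 pool left out. Srebf1, the lipogenic transcription factor, fell 3.55-fold, from 172, 264 and 303 CPM to 71.9, 70 and 66.2 CPM (log2 −1.83 ± 0.20, adjusted p = 0.00031). Mlxipl, the carbohydrate-responsive factor ChREBP, fell 2.26-fold from 249, 301 and 382 CPM to 113, 144 and 156 CPM (adjusted p = 0.0011). In both, room temperature replicate 1 was the lowest of its group and yet above each cold pool. Fasn, fatty acid synthase, fell from 8219, 11787 and 11498 CPM to 6526, 7027 and 8489 CPM with overlap (−0.52 ± 0.15, adjusted p = 0.016). Acly had −1.57 ± 0.49 (adjusted p = 0.056). Fasn and Acly were chosen after their values were seen. Aacs, which activates acetoacetate for lipid synthesis, was among the 12 largest falls, 5.92-fold, from 75.4, 170 and 181 CPM to 22.5, 22.8 and 26.7 CPM (adjusted p = 0.0064). Srebf1 overlaps Rai1 on the other strand.

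The 2 enzymes that finish triglyceride went opposite ways. Dgat2 (chromosome 7, 99153658 to 99182719) fell 4.02-fold, from 1164, 1308 and 1297 CPM to 351, 298 and 289 CPM (log2 −2.01 ± 0.10, adjusted p = 3.3e-07). Dgat1 (chromosome 15, 76502015 to 76511953) rose 2.68-fold, from 299, 224 and 230 CPM to 716, 656 and 643 CPM (log2 1.42 ± 0.11, adjusted p = 5.1e-06). Groups were far apart in each. Gk, glycerol kinase, rose 2.08-fold, from 841, 664 and 525 CPM to 1458, 1373 and 1385 CPM (adjusted p = 0.00037). Gpam, the first acyltransferase, rose 1.9-fold from 486, 451 and 418 CPM to 792, 960 and 819 CPM (adjusted p = 2.7e-05). Of the 15 tested genes of this list 5 rose and 3 fell, or 5 and 4 by totals alone.

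Several elongation genes rose. Of 15 elongases and desaturases 9 rose and none fell, or 4 and 1 by totals alone, 7 and 1 by DESeq2 and 8 and 2 by limma voom. At an unadjusted p under 0.05, 10 were higher and 2 lower. The largest difference downwards was that of the desaturase Scd2, −2.03 ± 0.60 (adjusted p = 0.051), chosen after its values were seen. Beside Elovl3, Elovl4 rose 11-fold from 0.444, 0.407 and 0.293 CPM to 3.64, 5.08 and 3.83 CPM (adjusted p = 2.3e-06). Hacd2, the dehydratase of the elongation cycle, rose 2.33-fold from 273, 195 and 179 CPM to 492, 493 and 519 CPM (adjusted p = 0.00013).

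Transcripts for uptake and release of lipid gave a mixed picture. Lpl, the lipase that frees fatty acids from lipoproteins, rose 1.86-fold, from 6855, 5190 and 4673 CPM to 10735, 10443 and 9854 CPM (adjusted p = 0.0003). Angptl4, its inhibitor, fell 1.44-fold, from 150, 179 and 139 CPM to 103, 108 and 114 CPM (adjusted p = 0.0012). Groups did not overlap for this pair. Vldlr, a lipoprotein receptor, fell 2.72-fold from 135, 189 and 161 CPM to 49.8, 60.6 and 68.3 CPM (adjusted p = 7e-05). The transporter Slc27a1 fell 2.16-fold from 157, 153 and 172 CPM to 63.1, 67.7 and 91.8 CPM, whereas Slc27a4 rose 1.59-fold. Of 18 uptake genes 5 rose and 6 fell. Among 16 lipolysis and droplet genes 4 rose and 3 fell, by totals alone 2 rose and 8 fell, and 1 fell without cold replicate 1. Lipe, hormone-sensitive lipase, fell 1.93-fold, from 1076, 1118 and 1104 CPM to 564, 539 and 610 CPM (adjusted p = 7.4e-06). Hcar1, the lactate receptor that restrains lipolysis, was the largest fall by the naming rule, 15-fold, from 29.1, 30 and 26 CPM to 1.1, 1.57 and 2.96 CPM (log2 −3.90 ± 0.29, adjusted p = 7.7e-05).

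Oxidation genes did not rise as a group. Of 23 genes that activate and oxidise fatty acids 2 rose and 9 fell, none beyond 2-fold. Hadh fell 1.54-fold from 865, 969 and 991 CPM to 639, 605 and 585 CPM (adjusted p = 0.00014). Cpt1b had 0 counts in all 6 libraries and shares its strand with another gene model, which is a limit of the counting and no measurement of its level. Of 36 nuclear genes of complex I 6 rose and 3 fell, and of 41 of complexes II to V also 6 and 3, with medians of 0.02 and 0.05. By totals alone none rose in either list. Leaving out a pool changed these counts: 0 to 8 genes of complex I and 2 to 8 of complexes II to V rose, the fewest of complex I without room temperature replicate 3 and the most of both without room temperature replicate 1. Falls ran from 2 to 5 in complex I and from 0 to 5 in complexes II to V, the most of both without room temperature replicate 1, and none of complexes II to V without room temperature replicate 2 or cold replicate 2. Of 21 genes that break down branched-chain amino acids 11 fell and 2 rose, by totals alone 14 fell and none rose, and 1 rose without any 1 pool other than room temperature replicate 1. Ppm1k, the phosphatase that activates this pathway, fell 2.57-fold from 17.9, 24.6 and 18.3 CPM to 6.58, 8.39 and 8.73 CPM (adjusted p = 5e-05).

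None of the 9 tested messages of the mitochondrial genome was called by edgeR or DESeq2, or had an unadjusted p under 0.05. Limma voom called 3 rises, and edgeR 6 without room temperature replicate 1. That pool had the highest summed level of these messages at room temperature, so its absence favours a call. mt-Nd1, a subunit of complex I, had 70597, 41239 and 47582 CPM against 55456, 72494 and 65021 CPM (0.28 ± 0.19, adjusted p = 0.27; 0.54 and 0.0046 without room temperature replicate 1). The 2 ribosomal RNAs of the mitochondrion rose and were chosen after their values were seen. The sources used here do not say how RNA was selected for the libraries, and the part of that step in these 2 rises was not tested. mt-Rnr1 went from 2710, 1896 and 2342 CPM to 10290, 9054 and 7447 CPM (log2 1.95 ± 0.15, adjusted p = 7.1e-06), and mt-Rnr2 from 5109, 4139 and 4847 CPM to 26035, 23145 and 16582 CPM (2.22 ± 0.17, adjusted p = 4.8e-06).

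Transcripts for glucose use rose in part, and glucose use itself was not measured. Of 22 genes of glucose uptake and glycolysis 10 rose and 2 fell, or 5 and 3 by totals alone. Hk1 rose 2.01-fold from 26.7, 25.4 and 28.2 CPM to 57.1, 50.3 and 54.1 CPM (adjusted p = 4.5e-06). Pfkp, the platelet-type phosphofructokinase, rose 2.08-fold from 162, 125 and 132 CPM to 267, 314 and 292 CPM (adjusted p = 2.2e-05). Pdk4, which blocks pyruvate entry, was not called (0.24 ± 0.18, adjusted p = 0.31). It was called without room temperature replicate 1 (0.45, adjusted p = 0.022) and in no other alternative fit. That pool was the highest for Pdk4 at room temperature, so its absence favours a call. In creatine cycling 3 of 8 tested genes rose and 2 fell, with a median of −0.62, or 0.38 with muscle as a covariate, and 1 to 2 fell with a pool left out. Ckb, the cytosolic creatine kinase, rose 4.15-fold, from 13.4, 12.1 and 12 CPM to 55.3, 59.3 and 41.1 CPM (adjusted p = 2.5e-06). Alpl, a phosphatase that acts on phosphocreatine, rose 3.02-fold from 24.1, 17 and 14.1 CPM to 51.3, 61.7 and 53.4 CPM (adjusted p = 0.00051). Gatm, which makes the precursor of creatine, fell from 2.66, 1.96 and 2.63 CPM to 1.4, 1.53 and 1.2 CPM (−0.81 ± 0.21, adjusted p = 0.0078). Atp2a2, the calcium pump of the endoplasmic reticulum, rose 2.02-fold, from 339, 312 and 308 CPM to 668, 685 and 582 CPM (adjusted p = 8.4e-06).

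**Figure D4:**
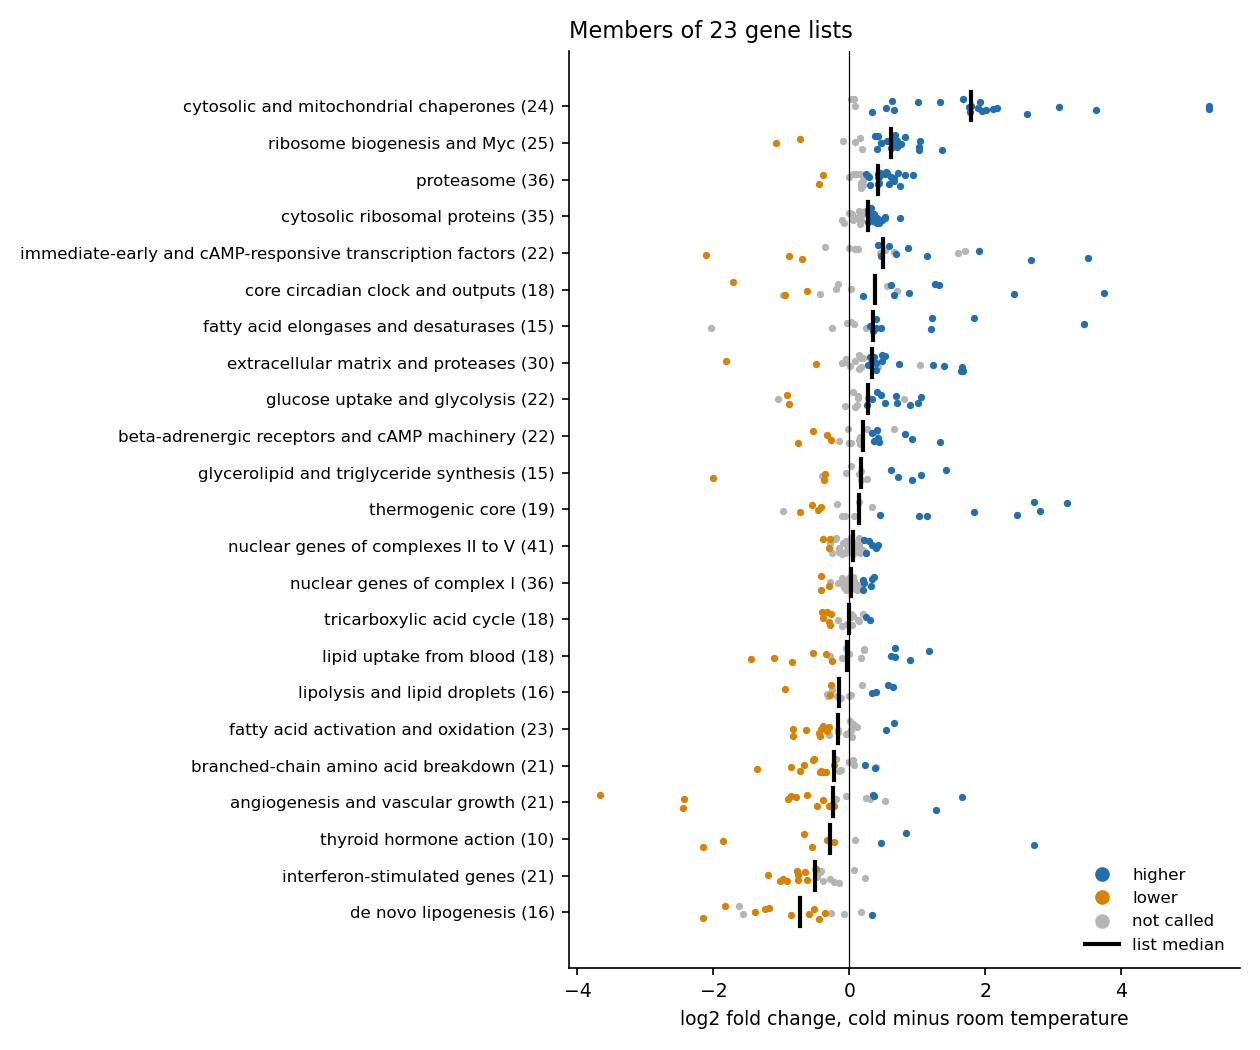
Log2 fold change, cold minus room temperature, of the tested members of 23 gene lists in control brown fat, 1 point per gene, coloured by call, with a bar at the list median. The median is 1.79 for chaperones and −0.73 for lipogenesis, and most other lists lie closer to 0.

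A few secreted factors rose strongly, but 41.7% of their list was called in all, against 49% of all genes. Bmp8b, a growth factor that makes brown fat more responsive to nerves, rose 18-fold, from 0.171, 0.407 and 0.342 CPM to 5.64, 5.97 and 5.66 CPM (log2 4.17 ± 0.24, adjusted p = 6.7e-07). It shares its strand with Oxct2b and lies opposite Ppie. Fgf9 rose 7.16-fold from 2.94, 1.78 and 1.68 CPM to 16.8, 15.3 and 13 CPM (adjusted p = 4.1e-06). Metrnl, meteorin-like, rose 3.01-fold from 2.39, 3.99 and 4.1 CPM to 11, 10.7 and 10.3 CPM (adjusted p = 4.3e-05). Each of the 3 had cold pools above all room temperature pools. Fgf21, a hormone of energy balance, rose from 0.649, 0.305 and 0.659 CPM to 1.07, 1.45 and 0.966 CPM (1.11 ± 0.33, adjusted p = 0.015). Its call was lost without room temperature replicate 2 (0.81, adjusted p = 0.066), without cold replicate 2 (0.93, adjusted p = 0.069) and with muscle as a covariate (0.80, adjusted p = 0.14). Adiponectin, Adipoq, fell 1.5-fold, from 685, 687 and 637 CPM to 440, 428 and 471 CPM (adjusted p = 0.00015), and Nampt fell 2.1-fold from 444, 488 and 442 CPM to 215, 231 and 208 CPM (adjusted p = 3.9e-06). Of 24 tested factors of the list 7 rose and 3 fell, or 7 and 7 by totals alone, and 6 fell without room temperature replicate 1.

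Falls outnumbered rises among genes of angiogenesis. Of 21 tested genes of angiogenesis 11 fell and 4 rose, or 12 and 2 by totals alone, with 6 falls without cold replicate 1 and 7 without cold replicate 2. Angpt1, the ligand that steadies vessels, fell 12.7-fold, from 15.7, 23.9 and 23.2 CPM to 1.94, 1.37 and 1.6 CPM (log2 −3.67 ± 0.20, adjusted p = 9.5e-07). Apln fell 5.44-fold from 4.17, 5.59 and 6.25 CPM to 1.07, 1.05 and 0.833 CPM (adjusted p = 7.2e-06), and Tie1, a receptor of endothelium, 1.71-fold. Vegfa, the growth factor of vessels, had 510, 434 and 438 CPM against 521, 674 and 589 CPM and passed narrowly (0.37 ± 0.11, adjusted p = 0.014). That call was lost by totals alone (0.18, adjusted p = 0.22), with muscle as a covariate (0.27, adjusted p = 0.17) and without room temperature replicate 2 (0.32, adjusted p = 0.063), room temperature replicate 3 (0.32, adjusted p = 0.059) or cold replicate 2 (0.27, adjusted p = 0.076). Of 11 markers of endothelium 3 rose and 2 fell, with sums of 578, 487 and 562 CPM against 628, 630 and 640 CPM. Pecam1, one of them, rose 1.7-fold from 103, 85.7 and 97.4 CPM to 170, 161 and 156 CPM (adjusted p = 4.2e-05).

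The 12 largest falls held further genes of different kinds. Esr1, the estrogen receptor alpha, fell 6.35-fold, from 28, 35.7 and 35.8 CPM to 5.07, 6.17 and 4.5 CPM (adjusted p = 4.4e-07). Sntb1, a syntrophin, fell 7.15-fold from 49.1, 47 and 44.9 CPM to 5.44, 6.78 and 7.49 CPM (adjusted p = 1.1e-07). Ano1, a chloride channel, fell 7.21-fold from 28.4, 41.6 and 38.8 CPM to 5.17, 4.32 and 5.56 CPM (adjusted p = 9.7e-07). Btc, betacellulin, a growth factor of the epidermal kind, fell 7.82-fold from 5.53, 6.3 and 4.49 CPM to 0.668, 0.524 and 0.866 CPM (adjusted p = 3.5e-06). These had tight groups at both temperatures. Kit was looser, 4.51, 18 and 24.4 CPM against 1, 1.37 and 1.03 CPM (−3.80 ± 0.82, adjusted p = 0.02), and its call was lost without room temperature replicate 2 (adjusted p = 0.057) or any 1 cold pool (0.075 to 0.08). Cmya5, a muscle protein, had 11.5, 27.5 and 6.25 CPM against 2.97, 1.61 and 2.2 CPM (−2.73 ± 0.73, adjusted p = 0.038). At room temperature its order over the pools was that of the muscle markers, and its call was lost without room temperature replicate 1 (adjusted p = 0.075) or any 1 cold pool (0.098 to 0.12).

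The clock list was measured at a single hour of the day. Of its 18 tested genes 8 rose and 3 fell, or 6 and 4 by totals alone, and 5 fell without room temperature replicate 1. Clock rose 1.84-fold from 64.1, 64.3 and 57.9 CPM to 114, 117 and 112 CPM (adjusted p = 7.1e-06), and Per2 1.58-fold from 47.6, 39.5 and 43.1 CPM to 68.7, 64.7 and 71.5 CPM (adjusted p = 0.0001). Arntl, the partner of Clock, rose from 7.75, 3.61 and 4.22 CPM to 29.1, 27 and 26.6 CPM (2.43 ± 0.27, adjusted p = 0.00055) and was chosen after its values were seen. The output factor Hlf fell 3.27-fold, from 45.3, 45 and 50.9 CPM to 12.8, 14.6 and 15.7 CPM (adjusted p = 5.5e-07).

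Interferon-stimulated genes had falls and no rise in edgeR. Of 21 tested 10 fell, or 14 by totals alone, and the median was −0.51. Their summed level did not fall, with 618, 658 and 681 CPM at room temperature against 718, 688 and 625 CPM in the cold. At an unadjusted p under 0.05, 1 was higher, and DESeq2 and limma voom each called 1 rise and 9 falls. Without cold replicate 1, 5 fell, and without room temperature replicate 3 or cold replicate 2, 6. Without cold replicate 3, 8 fell and 1 rose. Irgm1 fell 2.02-fold from 11.9, 11.5 and 17.2 CPM to 7.08, 6.25 and 6.79 CPM (adjusted p = 0.00036). Cxcl9, a chemokine that interferon induces, fell 2.33-fold from 18.5, 12.6 and 21.7 CPM to 7.58, 6.7 and 8.29 CPM (adjusted p = 0.00096). Of 12 macrophage markers 5 rose and 1 fell, with sums of 68.4, 88.9 and 92.2 CPM against 107, 103 and 108 CPM. The chemokines Ccl6 and Ccl9 rose 2.48-fold and 2.77-fold. Markers of neutrophils, B cells and T or NK cells were mostly below the filter, with 1 of 8, 2 of 8 and 4 of 11 tested. Of these, edgeR and DESeq2 called none, limma voom 1 B cell marker, and 1 T or NK cell marker, Cd4, had an unadjusted p under 0.05. In edgeR Cd4 was called as higher without a filter (adjusted p = 0.023), with the replicate block (0.99, adjusted p = 0.034), with all 12 libraries (1.01, adjusted p = 0.04), without room temperature replicate 1 (adjusted p = 0.011) and without cold replicate 2 (1.29, adjusted p = 0.039). The B cell marker Ighm was called as lower at −0.44 without a filter (adjusted p = 0.032), −0.58 without room temperature replicate 1 (adjusted p = 0.026) and −0.65 without cold replicate 3 (adjusted p = 0.035). The neutrophil marker Csf3r was called as higher without room temperature replicate 3 (0.93, adjusted p = 0.04), its highest room temperature pool, whose absence favours a call. The part of these cells in the falls was not tested.

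The matrix list had 16 rises and 2 falls among 30 genes, or 8 and 2 by totals alone, and 7 and 2 with muscle as a covariate. Without cold replicate 2, 9 rose, and without room temperature replicate 3, 10. Col4a1, of basement membranes, rose 3.11-fold from 407, 325 and 323 CPM to 1164, 1125 and 993 CPM (adjusted p = 1.6e-06). Its neighbour Col4a2, which overlaps it on the other strand, rose 2.63-fold. Lama4, a laminin chain of vessel and fat cell membranes, fell 3.54-fold from 66, 103 and 105 CPM to 23.5, 24.3 and 29.6 CPM (adjusted p = 0.00035).

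Genes of adipocyte identity and hormone response went both ways. Cebpa, a master factor of fat cells, fell 2.22-fold from 250, 279 and 294 CPM to 119, 114 and 137 CPM (adjusted p = 6.2e-06), while Ebf1 rose 2.1-fold from 81.4, 79.8 and 84.1 CPM to 171, 192 and 152 CPM (adjusted p = 7.6e-06). Of 14 adipogenic regulators 2 rose and 6 fell, with 1 to 3 rises and 5 to 6 falls when 1 pool was left out. Trarg1, a partner of the glucose transporter Glut4, fell 4.5-fold from 250, 232 and 280 CPM to 48.1, 57.9 and 63 CPM (adjusted p = 3.8e-07). Akt2, a kinase of insulin signalling, fell 1.95-fold from 320, 289 and 306 CPM to 145, 162 and 163 CPM (adjusted p = 7.4e-06). Irs1 rose 2.04-fold, and Igfbp3 (log2 1.90, adjusted p = 5.9e-06) and Sgk1 (0.88, adjusted p = 3.3e-05) rose as well. Of 23 genes of insulin and glucocorticoid signalling 8 rose and 5 fell, or 6 and 6 by totals alone. Their median was 0.21, and 4 to 10 rose and 2 to 6 fell with a pool left out. Tgfbr2, a receptor of TGF-beta, fell 2.66-fold from 92.4, 110 and 110 CPM to 39.3, 37.2 and 41.2 CPM (adjusted p = 1.1e-06). Among 25 tested genes of TGF-beta, BMP and activin signalling 6 rose and 3 fell, or 3 and 6 by totals alone. With a pool left out, 3 to 6 of these rose and 1 to 5 fell. In iron and heme handling 9 of 19 fell and 1 rose (2 without room temperature replicate 1 or 2). Steap4, a metalloreductase, fell 2.95-fold from 177, 215 and 160 CPM to 64.1, 68.7 and 54.3 CPM, and the rise was Ftl1, a ferritin chain, at 1.59-fold.

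Cdk7, the gene deleted in the other genotype, did not differ by temperature in control tissue beyond its spread, with 14.7, 13.5 and 14.5 CPM against 16, 14.3 and 14.1 CPM (0.06 ± 0.09, adjusted p = 0.63).

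The cold response of controls was then set against that of tissue with the Cdk7 deletion, in a fit of all 12 libraries, where the difference of the responses (control minus deletion, log2) was tested in 15208 genes and called in 23.5% of them. The CPM in this paragraph come from that fit, and the 2 responses share no library. Ucp1 in KO pools had 4395, 3905 and 3608 CPM at room temperature, against 3723, 4283 and 4207 CPM in the cold (log2 0.04 ± 0.12), and the difference was 1.10 ± 0.17 (adjusted p = 0.00037). Ppargc1a had 412, 544 and 698 CPM against 421, 480 and 582 CPM in KO, and a difference of 2.64 ± 0.56 (adjusted p = 0.011). Control pools at room temperature started lower than KO for Ppargc1a, at 271, 223 and 100 CPM. They started higher for Ucp1, at 8501, 6627 and 6787 CPM. Adrb3 fell in KO, from 66.9, 92.7 and 92.2 CPM to 24.9, 25.8 and 42.6 CPM, with a difference of 2.10 ± 0.50 (adjusted p = 0.017). For Dio2 the difference was 1.73 ± 0.54 and missed the threshold (adjusted p = 0.051). It was called by DESeq2 (1.73, adjusted p = 0.014) and by totals alone (1.57, adjusted p = 0.039). Without room temperature replicate 1 of the controls it was called too (2.37, adjusted p = 8.6e-06). That pool was the high one of its group for Dio2, so its absence favours a call and adds no support.

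Values for 3 heat shock genes follow, whose differences were not tested against each other. Hspa1a in KO pools went from 2.19, 1.84 and 1.7 CPM to 60.3, 37.5 and 46.5 CPM (log2 4.65 ± 0.32), and the difference from the control response was 0.65 ± 0.56 (adjusted p = 0.45). Hspa8 went from 768, 700 and 659 CPM to 1254, 1393 and 1310 CPM in KO (0.90 ± 0.10), with a difference of 2.20 ± 0.14 (adjusted p = 2.1e-07). Hsph1 started higher in KO, at 70.6, 125 and 97.7 CPM, and reached 360, 368 and 297 CPM, with a difference of 1.83 ± 0.26 (adjusted p = 0.00063). Of the 12 largest rises of controls 9 had a called difference, each positive, and of the 12 largest falls 10, each negative. These were chosen for their size in controls, so a smaller value in the other genotype is partly built in.

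**Figure D5:**
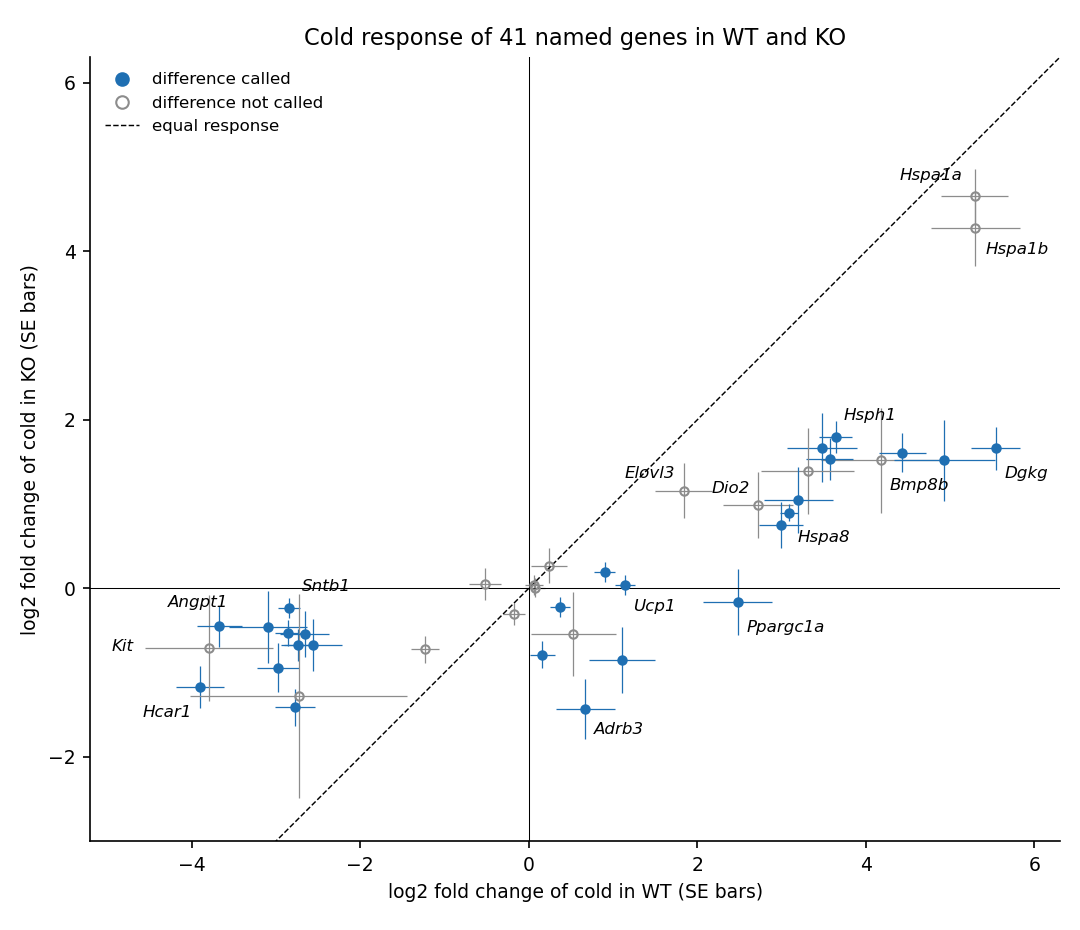
Log2 fold change of cold of 41 named genes in control (x axis, WT) against Cdk7-deleted (y axis, KO) brown fat, from the fit of all 12 libraries, with standard errors and the line of equal response dashed. Ucp1 and Ppargc1a lie near 0 on the KO axis, and Hspa1a and Hspa1b rise in both genotypes.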

How the data were processed

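RNA was sequenced from 12 pools of 2 mice, 6 of them from controls. The authors deposited raw counts of reads per Ensembl gene, 1 table per pool, made with STAR and HTSeq on GRCm38 per the submitters' processing notes, which give no versions. The deposited tables are named for reverse-strand counting, and the sources used here name no library kit. Genes that overlap another gene are therefore uncertain. The summary lines for reads outside genes (1.64 to 2.26% of all lines' reads), ambiguous (1.07 to 1.33%), unaligned (1.12 to 1.67%) and with several alignments (27 to 30.2%) were left out. Of 53379 gene IDs, 53274 were in the annotation used for names and positions.

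In R 4.3.3, genes were filtered with filterByExpr of edgeR 4.0.16 by group, leaving 13881 and removing 39498, TMM factors ran from 0.898 to 1.15, and a robust quasi-likelihood model with 1 mean per condition was fitted to the 6 control libraries (prior count 0.125, coefficient of variation 12.6%). Adjusted p are Benjamini-Hochberg values over all genes tested, with a threshold of 0.05, and the standard error was taken as the log2 fold change over the root of the F statistic. Nothing states that pools were independent beyond coming from different mice, and p measure the spread between these pools. The difference from the deletion came from the same model on 12 libraries and 15208 genes. On simulated data with 13654 genes, 46% of 100 genes with a log2 change of 0.5 and 90% of 100 with a change of 1 were called. There were 13 false calls (8.72% of calls), a share above the threshold of 0.05. No other gene was changed in the simulation, whereas 49% were called in the data, so these shares do not carry over to the data.

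Named genes were 17 genes given whatever their result, the 12 largest rises and 12 largest falls (called, mean log2 CPM at least 1, no overlap of the groups, official symbol), and up to 4 members of each list with the smallest p, of which fewer are printed. A result that the rule would name is not reported here. The members, lists and rules were chosen with earlier results of these data known. Promoter sequences are from RefSeq (GRCm38.p6), in windows of 300 bases, and 194 of 260 named genes had a window. Alternatives were other scalings (median-ratio factors, totals alone), filters, DESeq2 1.42.0, limma 3.58.1 voom, all 12 libraries, mitochondrially encoded genes left out, a replicate block, skeletal muscle markers as a covariate, and each library left out. The depth of 27609717 to 36792555 counts per library limits genes at a few counts most. Batches cannot be told apart from groups, since no dates are given.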

Additional observations from a re-analysis of the deposited data

Results flagged for a closer look

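The cold response differed between controls and the Cdk7 deletion by the test of the difference itself (control minus deletion, log2 scale, edgeR's quasi-likelihood test on 12 libraries) for 26 of the 41 genes compared, a set in which 24 were picked for a large response in controls. Of all 15208 genes tested, 23.5% were called. Of 17 genes compared whatever their result, 7 were called. Their difference was 1.10 for Ucp1, 2.64 for Ppargc1a, 1.96 for Fgf21, 0.95 for Adrb1, 2.10 for Adrb3, 0.71 for Lpl and 0.59 for Vegfa. Dio2, Elovl3, Cidea, Nr4a1, Pdk4, Angptl4, Bmp8b, Cirbp, Rbm3 and Cdk7 were not called. Among the largest rises of controls it was 3.88 for Dgkg, 3.41 for Acot5, 2.82 for Hpx, 1.83 for Hsph1, 2.03 for Cars2, 1.82 for Dnah10, 2.15 for Gmpr, 2.20 for Hspa8 and 2.24 for Tectb. Among the largest falls it was −2.73 for Hcar1, −3.21 for Angpt1, −2.63 for Acat3, −2.02 for Btc, −2.31 for Ano1, −2.60 for Sntb1, −1.36 for B3galt2, −2.07 for Fsd2, −2.12 for Esr1 and −1.89 for Aacs. Room temperature levels differed too, and their part in the differences was not tested. Of these falls all but B3galt2 and Aacs started lower in KO, without overlap. Btc had 6.21, 7.05 and 5.01 CPM in controls against 0.93, 0.572 and 0.783 CPM in KO. Of the largest rises given, all but Dnah10, Gmpr and Tectb started higher in KO. Acot5 had 3.11, 0.37 and 0.381 CPM in controls against 6.76, 9.28 and 6.42 CPM in KO.

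Adrb1 and Adrb3 had a called difference without a called response in controls, and both fell in the deletion, Adrb1 with a log2 fold change of −0.79 ± 0.16 (adjusted p = 0.0049) and Adrb3 with −1.43 ± 0.36 (adjusted p = 0.03). The calls of Fgf21, Vegfa, Dnah10 and Gmpr were lost in at least 1 alternative fit. In the largest rises and falls of controls a smaller response in the other genotype is partly built into the choice.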

How the results depend on the processing

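The direction and the call were the same in every alternative for 190 of the 260 named genes, and 48 genes lost a call in at least 1 fit, 31 of them by totals alone and 14 with the muscle covariate. Genes that the strict filter removed, and mitochondrially encoded genes in the fit without them, have no value there. Median-ratio factors gave 3468 rises and 3346 falls, DESeq2 3298 and 3082, the muscle covariate 2612 and 2641, and leaving out a pool 2753 to 3674 rises and 2686 to 3572 falls. The covariate kept 74.9% of the calls, and totals alone 73.8%. Totals alone gave 1627 rises in controls, and 711 positive and 2388 negative differences from the deletion in place of 1967 and 1614, with a median of −0.24. The cause was not tested. Whether replicate numbers pair the pools cannot be settled with 3 pools per condition. The correlations of same-numbered deviations were 0.0648, −0.252 and 0.274, and those of other pairs ran from −0.374 to 0.374. The replicate block gave 3198 rises and 3215 falls and kept 92.2% of the calls.

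Signs changed only in genes that were not called. By totals alone the log2 fold change was −0.03 for Adrb1, −0.12 for Rbm3, −0.13 for Cdk7, −0.02 for Mbp, −0.16 for Hba-a2 and −0.18 for Hbb-bs, and the difference from the deletion −0.09 for Cidea, −0.15 for Rbm3 and −0.19 for Cdk7. Hbb-bs was at −0.01 without a filter, with the strict filter and with the replicate block, and at −0.09 with the covariate. With a pool left out, fold changes ran from −0.06 to 0.16 for Rbm3, −0.00 to 0.10 for Cdk7, −0.46 to 0.20 for Trac, −0.84 to 0.16 for Cd79b, −0.04 to 0.14 for Hba-a2 and −0.18 to 0.13 for Hbb-bs. Differences from the deletion ran from −0.05 to 0.23 for Cidea, −0.24 to 0.16 for Pdk4, −0.05 to 0.14 for Rbm3 and −0.07 to 0.13 for Cdk7.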
